A study of Mus musculus with 24 samples.

Results

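The genes examined were 10 members of the interleukin-1 (IL-1) family and its inflammasome in the mouse: the ligands Il1a, Il1b, Il18 and Il33, the receptor antagonist Il1rn, the receptors Il1r1, Il1r2 and Il1rl1, the sensor Nlrp3 and the protease Casp1. They were chosen by name, through the RefSeq accession that each array probe carries. They had 16 probes of the 56605 on the array, which matched 22911 symbols in all. The samples were C57BL/6J male mice of 10 weeks (10W, young) and 90 weeks (90W, aged). White adipose tissue (WAT), kidney, lung and liver were taken, with 3 mice per age and tissue and 24 arrays in 1 colour, and the comparison asks how these genes differ between aged and young organs. The labels name no treatment or altered allele in either age. No label says whether 1 mouse gave several tissues.

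IL-1α and IL-1β signal through the receptor encoded by Il1r1, and the protein of Il1rn occupies that receptor without signalling. The receptor of Il1r2 is a decoy that binds IL-1 and passes no signal on. IL-33 is an alarmin of barrier, stromal and endothelial cells whose receptor ST2 is encoded by Il1rl1. IL-1β and IL-18 are made as inactive precursors and are cut by caspase-1 within an inflammasome, of which NLRP3 is a sensor in macrophages and other myeloid cells. The cleavage acts on protein, which mRNA arrays do not measure. In bulk tissue, more cells of a type and more RNA per cell cannot be told apart.

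Levels are log2 signals relative to the 75th percentile of the same array, so that 0 is the signal at that percentile and 1 unit is a 2-fold step. They compare 1 probe across arrays and not 1 gene with another. From 58.6% to 71.1% of an array's probes stood well above background. Arrays of a group correlated at 0.942 to 0.995. The lowest values belong to WAT of young mouse 1, so the WAT changes of the tested genes are also given without it. Aged mouse 1 of the lung carried liver transcripts: 3 hepatocyte markers (Alb, Ttr and Serpina1a) summed to 211 times the 75th percentile, against 0.237 to 7.97 times for the same markers on the other lung arrays, so lung calls are given without it. All 6 arrays of a tissue shared a slide and each tissue had its own, so tissue and slide cannot be told apart, whereas both ages lie on every slide. The markers of hepatocytes, lung epithelium, kidney tubule and adipocytes each had their highest summed level in their own tissue. For kidney tubule markers it was 782 to 918 times the 75th percentile in the young kidney and 277 to 507 times in the aged kidney.

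The DNA just before the start sites is shown for the genes called in the most tissues, Il1b and Casp1, and for 3 genes with a large change in the kidney, Il1rn, Il33 and Il1rl1. Each is the 250 bases before a RefSeq start site on the build GRCm38.p6, written 5′ to 3′ on the gene's strand, with motif matches in capitals. The stretches are chr2:129371140-129371389 for Il1b on the minus strand, and on the plus strand chr9:5298267-5298516 for Casp1, chr2:24336610-24336859 for the first of 3 Il1rn starts, chr19:29945540-29945789 for the second of 2 Il33 starts, and chr1:40429320-40429569 for the first of 2 Il1rl1 starts.
Il1b: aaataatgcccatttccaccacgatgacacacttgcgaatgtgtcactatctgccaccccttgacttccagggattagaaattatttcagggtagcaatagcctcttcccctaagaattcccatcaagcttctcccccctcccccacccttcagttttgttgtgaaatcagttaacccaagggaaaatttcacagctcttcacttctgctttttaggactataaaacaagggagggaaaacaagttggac
Casp1: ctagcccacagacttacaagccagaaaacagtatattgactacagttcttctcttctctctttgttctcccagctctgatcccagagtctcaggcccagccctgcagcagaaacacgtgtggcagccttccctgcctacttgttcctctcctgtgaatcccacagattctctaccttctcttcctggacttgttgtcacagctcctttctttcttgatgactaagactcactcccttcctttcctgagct
Il1rn: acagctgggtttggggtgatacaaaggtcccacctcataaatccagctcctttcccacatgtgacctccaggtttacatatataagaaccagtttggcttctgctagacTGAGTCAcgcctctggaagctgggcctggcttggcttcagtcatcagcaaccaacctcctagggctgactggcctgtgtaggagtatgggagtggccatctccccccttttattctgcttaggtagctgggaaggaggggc
Il33: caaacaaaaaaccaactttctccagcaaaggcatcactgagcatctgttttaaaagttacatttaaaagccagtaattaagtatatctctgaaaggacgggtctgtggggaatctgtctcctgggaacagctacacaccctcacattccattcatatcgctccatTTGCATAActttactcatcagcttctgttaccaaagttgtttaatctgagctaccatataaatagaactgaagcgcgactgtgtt
Il1rl1: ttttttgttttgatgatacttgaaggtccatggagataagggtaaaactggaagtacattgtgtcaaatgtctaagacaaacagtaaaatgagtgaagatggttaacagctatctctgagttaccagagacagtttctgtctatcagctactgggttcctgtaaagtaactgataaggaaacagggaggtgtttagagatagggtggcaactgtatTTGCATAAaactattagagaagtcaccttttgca

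The capitals mark an AP-1 motif (TGANTCA) in Il1rn and a C/EBP motif (TTGCNNAA) in both Il33 and Il1rl1, where N is any base. For these genes the printed start is the one with a match wholly within the 250 bases. Both strands were searched over 300 bases, with 50 after the start, for these motifs, the PU.1 motif (GAGGAAG) and the NF-κB motif. The other starts of these genes held no match wholly within the 250 bases. At the first Il33 start a PU.1 match began at base -4 and ran across the start. All 10 genes had an entry, with 16 promoters. The AP-1 motif was in 2 of them and in 7.81% of all 32851 promoters of the table. The C/EBP motif was in 3 against 10.8%, the PU.1 motif in 3 against 13.6%, and the NF-κB motif in 2 against 8.46%. No searched motif lay in the windows of Il1b, Casp1, Il18 or Il1r2. A match is a stretch of letters and not a measured site, and a window without one says nothing of the factor.

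The kidney held the most calls, and the tissues differed in how readily a change could be called. Of the 9 genes tested there, 8 were higher in aged mice and 1, Nlrp3, was lower. The calls are by limma at an adjusted p under 0.05 over all genes of the tissue. Il1rn, among the 8, was well above background in the aged kidneys alone. In the kidney 63.1% of all tested genes passed in either direction and 20.6% passed as higher and 42.6% as lower, so a call by itself is common there. In the liver 3 of 9 tested genes (Il1b, Il33 and Casp1) were higher and none passed as lower, against a background of 27.5% called in either direction and 10.5% as higher. The lung had 2 of 10 higher (Il1b and Casp1), against 5.61% and 2.72%. In WAT only Il1rn of 9 passed, against 2.59% and 2.01%. The median log2 change of the tested genes was 2.95 for the kidney, 1.15 for WAT, 0.75 for the liver and -0.14 for the lung, where that of all genes was -0.23, -0.05, -0.20 and -0.08. Under scaling to spike-in spots the all-gene median was 0.16 in the kidney and -0.09 in the liver, and the share of called genes that were higher went from 32.6% to 67.8% in the kidney and from 38.1% to 72.2% in the liver.

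**Figure D1:**
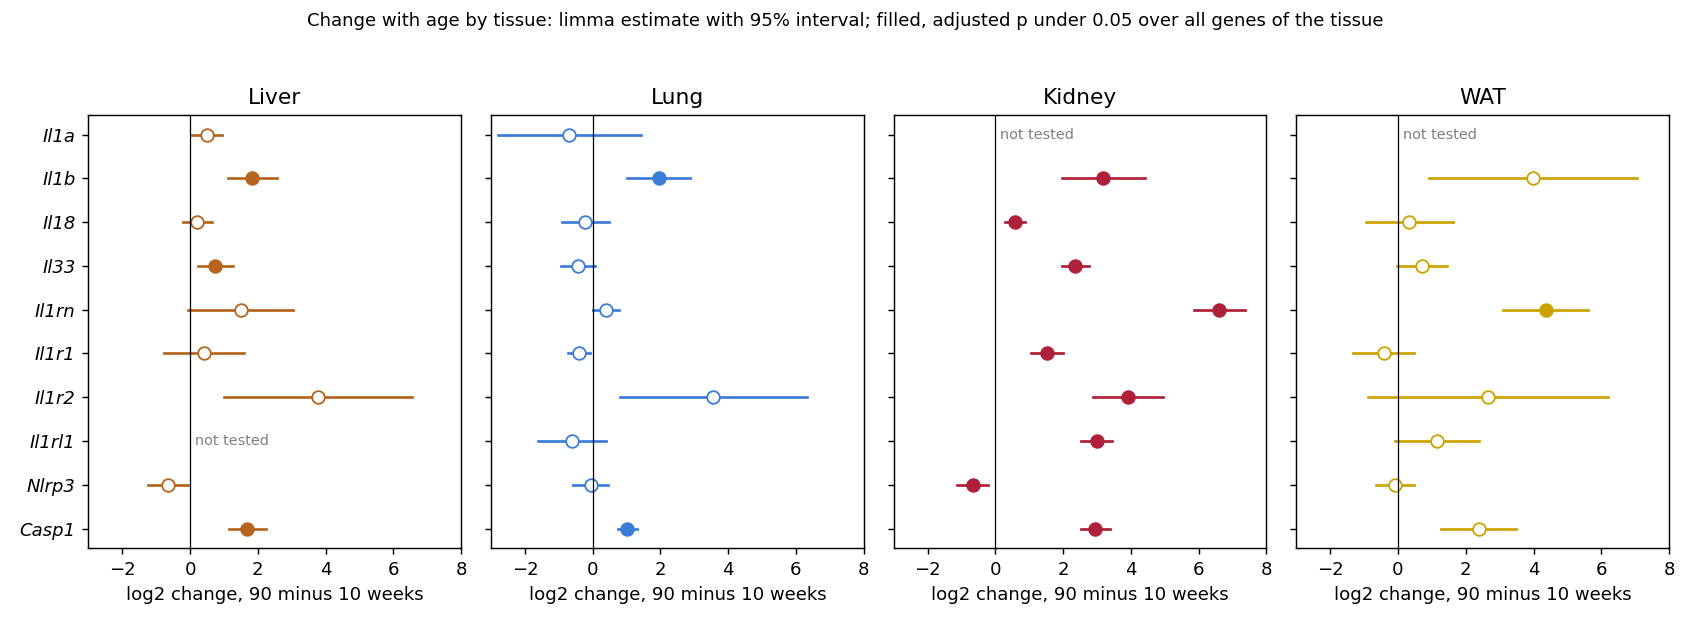
Change with age of the 10 genes in each tissue, as the log2 level at 90 weeks minus that at 10 weeks, with the limma estimate as a point and its 95% interval as a line. Filled points passed an adjusted p under 0.05. In the kidney all 9 tested genes are filled, with only Nlrp3 left of 0, and the kidney point of Il1rn is a measured difference although no young array was well above background.

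Among the ligands, Il1b, the main secreted pyrogenic cytokine of myeloid cells, was higher in aged liver, lung and kidney. Its levels (NM_008361, probe A_51_P212782) in the kidney were -2.88, -4.26 and -2.71 in young mice and 0.56, -0.12 and -0.73 in aged mice. The groups were apart by more than 1 unit, and the change was 3.19 (SE 0.50, adjusted p = 0.00223 by limma), or 9.13-fold. In the liver the young levels of Il1b were -0.75, -1.06 and -0.90 and the aged levels 1.05, 1.47 and 0.27, a change of 1.83 (SE 0.31, limma adjusted p = 0.00923). Every aged liver was above every young one, and the liver calls of Il1b held with any 1 mouse left out but not with the methods' t-test (adjusted p = 0.0541).

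Il1b in the lung was 0.36, -0.32 and 1.1 in young mice and 2.46, 2.59 and 1.93 in aged mice, a change of 1.95 (SE 0.38, limma adjusted p = 0.0447). The groups did not overlap, but this call ended when any 1 mouse was left out, with changes from 1.6 to 2.31 (1.88 at an adjusted p of 0.0852 without aged mouse 1). Il1b in WAT varied more among aged mice than in any other tissue, at -2.38, 1.00 and 2.23, against -4.75, -2.37 and -3.99 in young mice. Aged mouse 1 was level with young mouse 2, and the change of 3.99 had an SE of 1.26 and an adjusted p of 0.168 in limma. It was 3.46 without young mouse 1. With the spread pooled over all 24 arrays the WAT change had an adjusted p of 0.00254, while those of liver and lung had 0.0956 and 0.252. The second Il1b probe gave changes of 4.61 for WAT, 2.95 for the kidney, 1.96 for the lung and 1.76 for the liver.

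Il1a, the sister cytokine that acts without caspase-1 cleavage, passed the test in no tissue. It was near the limit of detection: all 6 liver arrays were well above background, with levels of -4.22, -4.07 and -4.31 in young and -3.50, -3.57 and -4.01 in aged mice, but no kidney array was. The liver groups did not overlap, and the change of 0.51 had an adjusted p of 0.0852 in limma. In WAT a single array, aged mouse 3, was well above background, at -3.31 against -6.55 and -8.09 in the other aged mice. In the lung 3 young arrays and 1 aged array were well above background.

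Il18, whose product drives interferon-γ release, moved little. Its kidney levels were -0.76, -0.56 and -0.56 in young mice and 0.12, -0.02 and -0.25 in aged mice, a change of 0.58 (SE 0.12, limma adjusted p = 0.00731). These groups did not overlap, and the step was the smallest of the 8 that were higher in the kidney. It was 0.97 under spike-in scaling, and the call ended in the fit of all 24 arrays (adjusted p = 0.209). Elsewhere its change was 0.34 in WAT (95% interval -0.95 to 1.62), 0.22 in the liver (-0.20 to 0.64) and -0.21 in the lung (-0.92 to 0.49). The WAT change turned to -0.27 without young mouse 1, and the lung change to 0.02 without aged mouse 2.

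Il33 was higher in aged kidney and liver. In the kidney it was -0.31, -0.37 and -0.29 in young mice and 2.32, 2.09 and 1.70 in aged mice. The young kidneys lay within 0.1 unit of each other and all aged kidneys were far above them, with a change of 2.36 (SE 0.16, limma adjusted p = 0.000155), or 5.12-fold. In the liver Il33 was -2.41, -2.58 and -2.64 in young and -1.91, -1.39 and -2.08 in aged mice, a change of 0.75 (SE 0.22, limma adjusted p = 0.0418). That call ended when any liver other than aged mouse 4 was left out, under scaling to spike-in spots (0.86, adjusted p = 0.0986), with the methods' t-test (0.0958) and with normexp, where the change was 0.23 (0.293). The lung, where the young level of 2.55 ± 0.31 (SD, n = 3) was the highest of the tissues, had a change of -0.43 (95% interval -0.93 to 0.08). In WAT Il33 was -0.15, 0.90 and -0.02 in young and 1.01, 0.93 and 0.92 in aged mice. The aged mice lay above the young ones, closely over young mouse 2, and the change was 0.71 (95% interval -0.03 to 1.45, limma adjusted p = 0.274), or 0.51 without young mouse 1. Its second probe gave 1.68 in the kidney and 0.09 in the lung.

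Il1rn, the antagonist, had the largest measured change of the 10 genes. No young kidney array was well above background for it, at -7.82, -7.43 and -6.59, and the aged kidneys were at -0.46, -0.78 and -0.78. For a bound, each young signal was set no lower than the dimmest probe that its array measured well above background. The change was then at least 27.1-fold. The measured means were -7.28 ± 0.63 and -0.68 ± 0.18 (SD, n = 3). The limma adjusted p of 5.03e-05 is for these measured means and not for the bound. The probe passed the filter through the aged arrays alone. The second Il1rn probe, also without a young kidney array well above background, gave at least 1.96-fold. The change of the first probe was 2.68 with normexp, and the mean of both probes gave 4.21. Without 1 aged kidney the first probe had too few arrays above background to be tested.

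In WAT Il1rn was -3.14, -1.56 and -2.17 in young mice and 2.35, 1.28 and 2.59 in aged mice. The gap between the groups exceeded 2 units, and the change was 4.37 (SE 0.51, limma adjusted p = 0.0170), or 20.6-fold. It was 3.94 (adjusted p = 0.0282) without young mouse 1. The change stayed at 4.42, 4.23 and 4.11 without young mouse 3, aged mouse 1 and aged mouse 3, where the call ended at adjusted p values of 0.0605, 0.0972 and 0.0886. In the liver 1 mouse stood out: aged mouse 2 was at 2.39, the other aged mice at 0.68 and -0.39 and the young mice at -0.89, -0.85 and -0.05. The liver change was 1.49 (SE 0.66, limma adjusted p = 0.127), and 0.74 without aged mouse 2. In the lung it was 0.40 (limma adjusted p = 0.181), with all aged mice above all young mice.

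**Figure D2:**
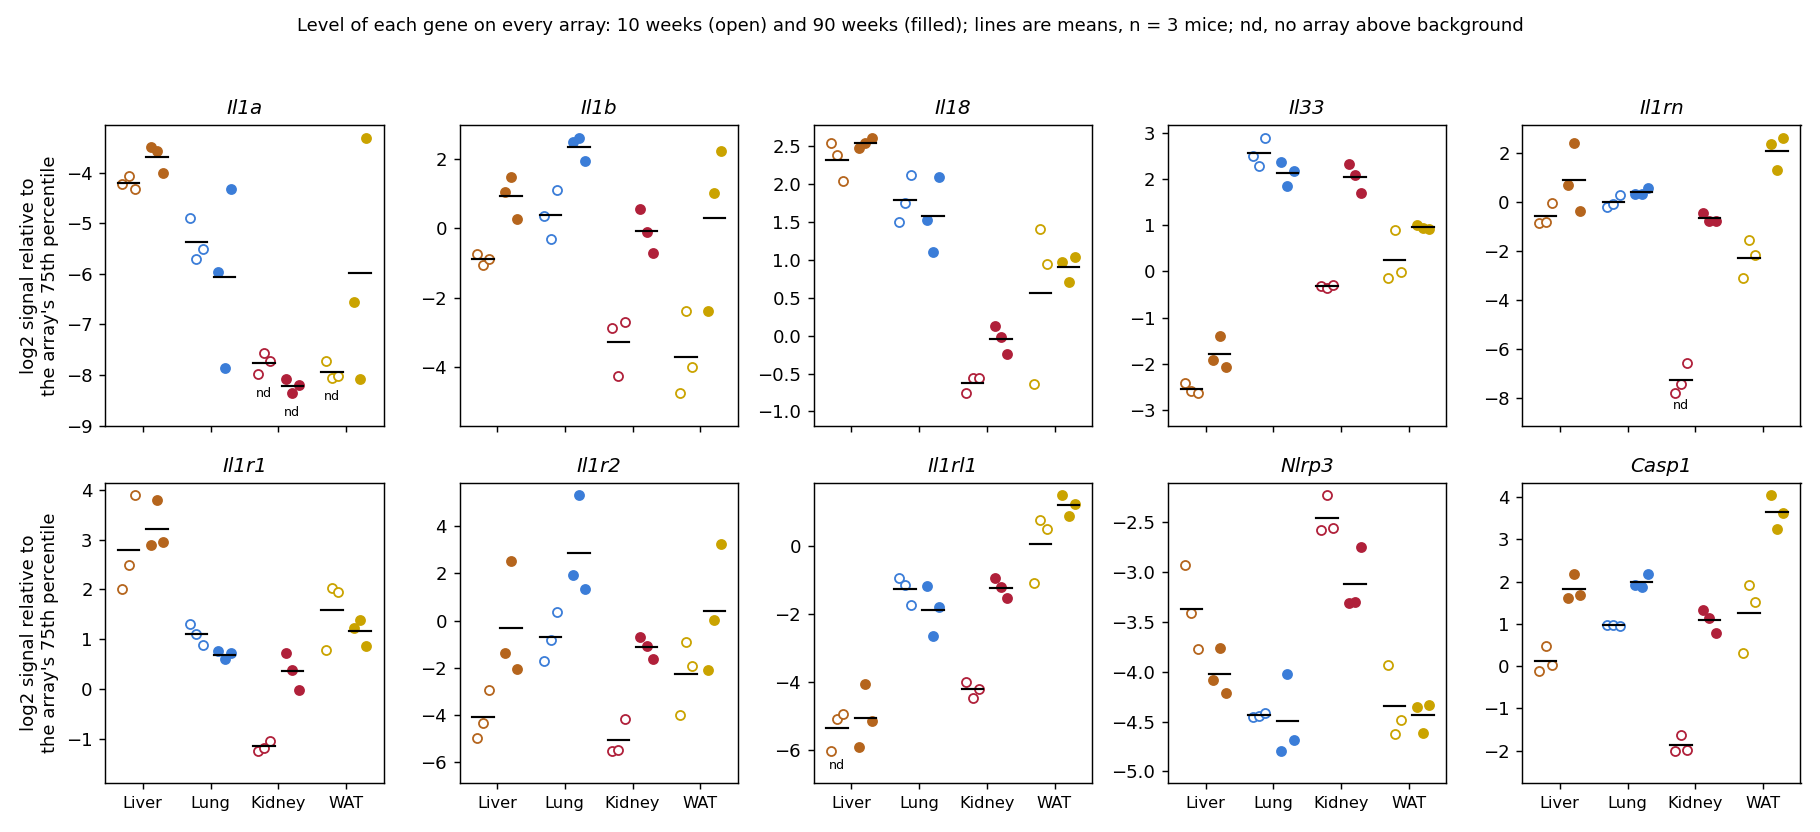
Level of each gene on every array, as log2 signal over the array's 75th percentile, with 10-week mice as open and 90-week mice as filled points and the mean of 3 mice as a line. The mark nd stands under groups with no array well above background, such as Il1rn in the young kidney. The aged points of Il1r2 and Il1b spread widely in WAT, while those of Casp1 lie above the young points in every tissue.

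Of the receptors, the signalling receptor Il1r1 was higher in the aged kidney alone among the calls. It was -1.23, -1.19 and -1.03 in young kidneys and 0.73, 0.39 and -0.02 in aged kidneys, a change of 1.52 (SE 0.19, limma adjusted p = 0.00103). No aged kidney reached down to a young one. In the lung the aged mice were all below the young ones, with a change of -0.40 (95% interval -0.73 to -0.08, limma adjusted p = 0.127). In WAT and the liver, whose groups overlapped, the changes were -0.43 and 0.41. The WAT change was -0.83 without young mouse 1, and the liver change 0.02 without young mouse 1 and 0.96 without young mouse 3.

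The decoy receptor Il1r2 had changes between 2.66 and 3.92, with a spread that differed by tissue. In the kidney it was -5.50, -5.47 and -4.15 in young mice and -0.70, -1.06 and -1.61 in aged mice, a change of 3.92 (SE 0.42, limma adjusted p = 0.000596). Of the young kidneys 1 was well above background, and with normexp background correction the change was 1.84. In the liver the aged levels were -1.37, 2.53 and -2.07 against -4.95, -4.34 and -2.92, and the change of 3.77 missed the threshold (SE 1.18, limma adjusted p = 0.0523). There too 1 young array was well above background, and the change was 1.90 with normexp. All aged livers were above the young ones, and without the high aged mouse 2 the change was 2.36 and the adjusted p 0.0390. The second Il1r2 probe had no young array well above background in the liver, kidney or WAT. Its bounds were 2.36-fold in the liver, 3.03-fold in the kidney and 6.44-fold in WAT, where the groups overlapped. Its change in the lung was 3.46.

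Il1r2 in the lung was -1.71, -0.80 and 0.38 in young mice and 1.92, 5.31 and 1.33 in aged mice, a change of 3.56 (SE 1.13, limma adjusted p = 0.117). Aged mouse 2 of the lung was the highest, and the change was 2.33 without it. Whether it is the same animal as aged mouse 2 of the liver is not known. In WAT Il1r2 was -4.0, -0.90 and -1.92 in young and -2.07, 0.01 and 3.23 in aged mice, with a change of 2.66 (SE 1.46, limma adjusted p = 0.372) and overlapping groups. It was 1.80 without young mouse 1 and 1.24 without aged mouse 3. A test of the difference between tissues gave Il1r2 an adjusted p of 0.929.

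The highest Il1r2 levels and the highest neutrophil markers lay on the same arrays. Summed over 7 markers, among them S100a8 and S100a9, their log2 level was 10.4 in both aged mouse 2 of the lung and aged mouse 2 of the liver, the highest values of all arrays, and 9.78 in aged mouse 3 of WAT. Aged mouse 2 of the lung, aged mouse 3 of WAT and aged mouse 2 of the liver are also the 3 highest arrays for Il1r2. The order did not hold on all arrays: among young WAT, mouse 2 had the lowest sum (2.11) and the highest Il1r2 (-0.90), and mouse 3 a sum of 6.45 with Il1r2 at -1.92. In the kidney the sum was -1.15 to -0.21 in young mice and 1.32 to 3.26 in aged mice, and 5 of 6 tested neutrophil markers were called higher. For the liver 1 of 7, for the lung 1 of 7 and for WAT none of 6 passed, with changes whose medians were 4.79, 2.68 and 2.28, while 7, 6 and 1 had an unadjusted p under 0.05 as higher. Among all genes 20.6% passed as higher in the kidney, 10.5% in the liver, 2.72% in the lung and 2.01% in WAT. Ly6g had no matched probe. The part of neutrophils in the Il1r2 levels was not tested.

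Il1rl1, the IL-33 receptor, was higher in the aged kidney together with its ligand. Its kidney levels (NM_001025602, probe A_55_P2027737) were -4.0, -4.45 and -4.19 in young and -0.93, -1.21 and -1.52 in aged mice, a change of 3.0 (SE 0.19, limma adjusted p = 0.000114), or 7.98-fold. The spread within each age was far smaller than the step, which was 1.51 with normexp. A probe to the transcript NM_010743 had no young kidney array well above background and was at least 4.65-fold higher in aged mice. The third probe, to the same transcript as the first, was well above background on 1 aged kidney array and no young one. It was too dim to be tested there. In WAT, which had the highest young level at 0.07 ± 1.01 (SD, n = 3), the change was 1.15 (95% interval -0.10 to 2.4). It was 0.57 without young mouse 1, and 0.80 and 0.68 with the other probes. The lung change was -0.61 (95% interval -1.61 to 0.39). In the liver Il1rl1 was well above background on 1 of 6 arrays and was not tested.

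Nlrp3, the sensor, was the one gene lower in the aged kidney, at -2.58, -2.23 and -2.55 in young mice and -3.31, -3.3 and -2.75 in aged mice. These groups did not overlap, and the change was -0.67 (SE 0.19, limma adjusted p = 0.0207). Scaled to spike-in spots it was -0.28 (adjusted p = 0.245), and the call also ended without young mouse 2, aged mouse 1 or aged mouse 2. The liver change was -0.65 (SE 0.25, limma adjusted p = 0.0929), with overlapping groups. In the lung and WAT the changes were -0.06 and -0.09, and both turned above 0 under normexp background correction, that of WAT also without young mouse 1 (0.12). Nlrp3 had 1 probe, and its levels were low in every tissue, from -2.23 down to -4.79 over all arrays.

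Casp1, which encodes the protease that cuts IL-1β and IL-18, had every aged mouse above every young mouse in all 4 tissues. In the kidney it was -2.0, -1.63 and -1.98 in young and 1.32, 1.14 and 0.79 in aged mice, a change of 2.95 (SE 0.17, limma adjusted p = 8.9e-05), or 7.75-fold. In the liver it was -0.11, 0.47 and 0.03 in young and 1.62, 2.19 and 1.69 in aged mice, a change of 1.70 (SE 0.23, limma adjusted p = 0.00532). Both steps were many times the spread within an age.

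The 3 young lungs had nearly equal Casp1 levels of 0.97, 0.98 and 0.95, and the aged lungs were at 1.93, 1.87 and 2.19. The change was 1.03 (SE 0.11, limma adjusted p = 0.0135). Its adjusted p rose to 0.0806, 0.0737 and 0.0626 without young mice 1, 2 and 3, with the change still between 1.02 and 1.04, and was 0.0269 at a change of 1.06 without aged mouse 1. In WAT Casp1 was 0.32, 1.93 and 1.53 in young and 4.05, 3.24 and 3.63 in aged mice, and the change of 2.38 (SE 0.46) had an adjusted p of 0.0592 in limma. Without young mouse 1 it was 1.91, at an adjusted p of 0.0505.

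All aged mice lay above all young mice for 8 of 9 tested genes in the kidney (23.1% of all genes), 5 of 9 in the liver (16.8%), 4 of 9 in WAT (13.7%) and 4 of 10 in the lung (11.6%). They lay wholly below for 1 gene in the kidney (47.6% of all genes), 1 in the lung (24.2%) and none in the liver (33.1%) and WAT (15%). In either direction the groups of all genes were apart for 70.7% in the kidney, 49.9% in the liver, 35.8% in the lung and 28.8% in WAT. Il1rn, among the 8 in the kidney, passed the filter through its aged arrays alone, so its separation follows largely from that filter. Il1r2 had 1 young array well above background in the kidney and 1 in the liver.

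Leukocyte markers had a higher summed level in aged than in young mice in every tissue. The log2 sum of Ptprc, Coro1a and Laptm5 was 1.87 to 1.92 in young and 3.69 to 5.05 in aged livers, 4.65 to 4.71 and 5.83 to 6.18 in the lung, 1.28 to 1.39 and 4.03 to 4.63 in the kidney, and 2.69 to 4.30 and 5.13 to 5.69 in WAT. All 3 passed as higher in kidney, liver and lung and none in WAT, where all 3 had an unadjusted p under 0.05. Of 8 macrophage markers, limma called 8 higher in the liver, 7 in the kidney, 3 in WAT and none in the lung, where none had an unadjusted p under 0.05 either. Their summed level went from 24 to 27.3 times the 75th percentile in young kidneys to 82.0 to 116 times in aged ones. Of all genes 20.6% passed as higher in the kidney, 10.5% in the liver, 2.72% in the lung and 2.01% in WAT. The part of leukocytes and macrophages in the changes of Casp1, Il1b and Il1rn was not tested.

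Other cell types moved as well. The 4 fibroblast markers, of which Pdgfra and Col1a1 are examples, were all called higher in the liver and the kidney, the tissues in which Il33 was called, with summed levels of 50 to 66.2 and 125 to 149 in young and aged livers and 8.43 to 9.81 and 32.3 to 42.0 in young and aged kidneys. Of 4 endothelial markers 1 was called higher in the liver, and in the kidney 1 was higher and 1 lower. Their sums were 9.48 to 11.8 in young and 13.7 to 17.0 in aged livers, and 5.75 to 6.83 and 5.55 to 6.84 in the kidney. Of 4 mesothelium markers 3 were called higher in the kidney and none in the liver. Of all genes 10.5% were called higher in the liver and 20.6% in the kidney. In the lung none of the 4 fibroblast markers passed, and their median change was -1.53. The 4 kidney tubule markers were all called lower in the aged kidney, where Nlrp3 was lower, as were 42.6% of all genes. The 3 tested hepatocyte markers and the 1 tested lung epithelium marker were also called lower there. Of 6 mast cell markers 3 were called higher in WAT, against 2.01% of all genes. Their sums there were 3.49 to 10.5 in young and 41.6 to 63.7 in aged mice. WAT had the highest Il1rl1 levels, but Il1rl1 was not called there. In the kidney, where Il1rl1 was called, 2 of 5 tested mast cell markers were higher, against 20.6% of all genes. None passed in the lung, where the young sums were 10.5 to 12.7, and 2 of 3 were lower in the liver, against 17%. The part of these cells in the levels of Il33, Il1rl1 and Nlrp3 was not tested.

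**Figure D3:**
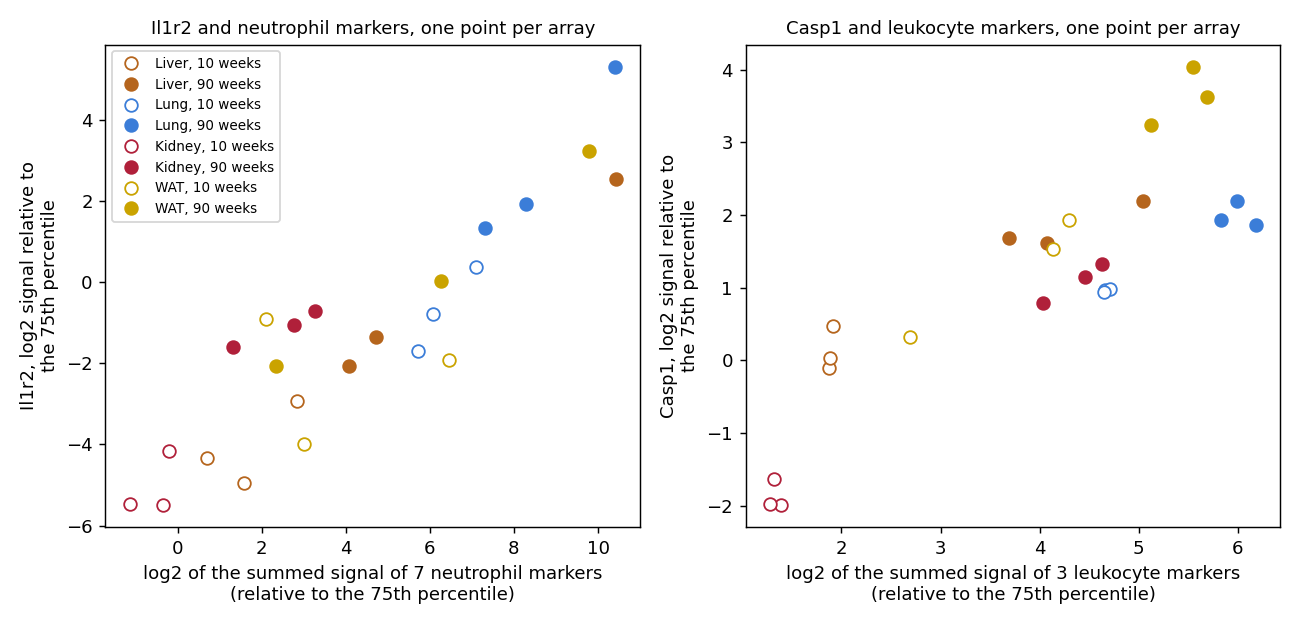
Level of Il1r2 against the log2 summed signal of 7 neutrophil markers (left) and of Casp1 against that of 3 leukocyte markers (right), with 1 point for each of the 24 arrays, coloured by tissue, open at 10 weeks and filled at 90 weeks. The 3 arrays highest in neutrophil markers are the 3 highest for Il1r2, while the array highest in leukocyte markers, aged mouse 2 of the lung, has a Casp1 level of 1.87, below the aged WAT arrays.

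The size of the change differed among tissues for 5 of the 10 genes, by a limma F test over all 24 arrays, against 31.2% of all genes. These were Il1rn (adjusted p = 6.29e-05), Il33 (0.000179), Il1rl1 (0.00411), Casp1 (0.0110) and Il1r1 (0.0267). Of the 60 single contrasts between 2 tissues, 14 passed and 11 of them involved the kidney. Of all genes 20.5% passed between kidney and WAT, 18.8% between lung and kidney, 14.7% between liver and WAT, 12.5% between liver and lung, 8.64% between liver and kidney and 2.89% between lung and WAT. The contrasts of Il1rn with the kidney and of Il1rl1 with the liver rest on groups that were not well above background, so their sizes are not exact. The change of Il33 was larger in the kidney than in the liver by 1.61, than in WAT by 1.65 and than in the lung by 2.78. Il1b did not pass (adjusted p = 0.349), and the intervals of its differences were wide, from -2.58 to 2.35 for liver minus lung.

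The level at 10 weeks differed among tissues for all 10 genes, as it did for 90.1% of all genes. Between single tissues 72.4% of all genes differed for liver and lung, 66.5% for liver and WAT, 62.7% for lung and kidney, 55% for kidney and WAT, 54.8% for liver and kidney and 52.4% for lung and WAT. The young kidney was the lowest of the 4 tissues for 5 of them, Casp1, Il18, Il1r1, Il1r2 and Il1rn. For Casp1 the order was WAT (1.26 ± 0.84), lung (0.97 ± 0.02), liver (0.13 ± 0.30) and kidney (-1.87 ± 0.20; SD, n = 3), where WAT and lung did not differ beyond their spread (limma adjusted p = 0.439). Il1b ran from lung (0.38 ± 0.71) and liver (-0.90 ± 0.15) to kidney (-3.29 ± 0.85) and WAT (-3.71 ± 1.21), and neither lung and liver (adjusted p = 0.172) nor kidney and WAT (0.690) were told apart by limma. Il33 ran from lung (2.55 ± 0.31) over WAT (0.24 ± 0.57) and kidney (-0.32 ± 0.04) to liver (-2.54 ± 0.12), with WAT and kidney not told apart (0.0582). At 90 weeks Il33 in the kidney, at 2.03 ± 0.31, was next to the lung, at 2.13 ± 0.27. Tissue and slide cannot be told apart in these orders.

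The order for Il1rn was lung (-0.01 ± 0.26), liver (-0.60 ± 0.47), WAT (-2.29 ± 0.80) and kidney (not well above background), and lung and liver were not told apart (limma adjusted p = 0.331). Il18 was highest in liver (2.32 ± 0.25) and lung (1.79 ± 0.31), which were not told apart (0.184), then WAT (0.57 ± 1.07) and kidney (-0.63 ± 0.12). For Il1r1 the liver (2.80 ± 0.97) led, then WAT (1.59 ± 0.69) and lung (1.1 ± 0.22), not told apart (0.298), and kidney (-1.15 ± 0.10). Nlrp3 alone was highest in the kidney (-2.45 ± 0.19), then liver (-3.37 ± 0.43), WAT (-4.35 ± 0.37) and lung (-4.44 ± 0.02), the last pair not told apart (0.772). Il1r2 led in the lung (-0.71 ± 1.04), and no neighbours in its order of lung, WAT, liver and kidney were told apart. Il1rl1 ran from WAT over lung (-1.26 ± 0.40) and kidney (-4.21 ± 0.23) to liver, where no young array was well above background.

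The rest of the pathway was read from lists of other genes by role. Among the other ligands and binding proteins, Il1f6, which encodes IL-36α, was not well above background on any young kidney array. It was at least 49.4-fold higher in aged kidneys. Its limma adjusted p of 7.15e-06 is for the measured means, -5.96 and 0.19, and not for that bound. Il18bp, whose product neutralizes IL-18, was higher by 1.13 in the kidney, 1.31 in the liver and 0.92 in the lung, and its change was 0.51 in WAT (limma adjusted p = 0.520). Il1f5, which encodes the IL-36 receptor antagonist, was lower by limma in the kidney, with a change of -1.19. Of the 6 listed genes 3 were tested in the kidney, 2 in the lung and 1 each in liver and WAT.

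Of the other receptors 3 were higher and 1 lower in the kidney, of 4 tested, against 20.6% and 42.6% of all genes. Among them were the IL-18 receptor chains: Il18r1 was higher by 3.78 and Il18rap by at least 2.69-fold, its young kidneys not being well above background. Sigirr, an inhibitory receptor of the family, was lower with a change of -0.92 (limma adjusted p = 0.000623). None of the 4 tested in WAT, 4 in the lung and 3 in the liver passed by limma. At an unadjusted p under 0.05 only 1 in the lung, lower, would have passed.

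The 13 genes of IL-1 receptor signalling had median changes between -0.30 and 0.12. In the kidney 3 were higher and 7 lower, shares near the 20.6% and 42.6% of all genes, with Irak3, an inhibitor of the pathway also called IRAK-M, at 2.50, the adaptor Myd88 at 0.57 and the kinase Irak1 at -0.56. In the liver Irak3 was higher by 2.70 and Irak2 lower, at -0.53. The lung had Tab1 lower, at -0.58, and WAT had none called and none with an unadjusted p under 0.05.

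Among the 18 other inflammasome genes 12 were higher and 5 lower in the kidney, against 20.6% and 42.6% of all genes. The higher ones included Casp4, the caspase of the non-canonical inflammasome, by 3.38 on the log2 scale, and Naip1 and Naip6, by at least 7.39-fold and 9.13-fold over young kidneys that were not well above background. The Naip genes are close paralogs, and how far their probes cross-hybridize was not tested. The liver had 11 higher and 1 lower, against 10.5% and 17% of all genes, among them the sensor Nlrc4 (at least 5.30-fold), the pyrin gene Mefv (2.67) and Naip6 (2.29). In the lung 6 were higher, against 2.72% of all genes, with Mefv (2.26), the DNA sensor Aim2 (1.19) and Naip2 (1.16) the largest, and none passed as lower or had an unadjusted p under 0.05 as lower. Of 17 tested in WAT, Nlrc4 (2.81) and the channel gene Panx1 (2.07) were higher, against 2.01% of all genes. Nlrc4 was lower in the kidney, with a change of -0.76 (limma adjusted p = 0.00234), a gene singled out after its values were seen.

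Among 11 genes known to respond to NF-κB, a transcription factor that IL-1 activates, all 11 were higher in the kidney, against 20.6% of all genes. The chemokine Cxcl1 was higher by 5.19 and the adhesion molecule Vcam1 by 4.55, and the chemokine Cxcl2 by at least 4.53-fold. In the liver 8 of 9 tested were higher, against 10.5% of all genes, the largest being Vcam1 (3.36), Cxcl1 (2.73) and the inhibitor Tnfaip3 (2.48). In the lung 1 of 10, Tnfaip3 (1.04), and in WAT 1 of 11, Vcam1 (3.28), passed. The median changes were 2.52 for the kidney, 1.70 for the liver, 1.44 for WAT and -0.02 for the lung. The list was chosen with earlier results of these data known, and the part of IL-1 in these changes was not tested.

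**Figure D4:**
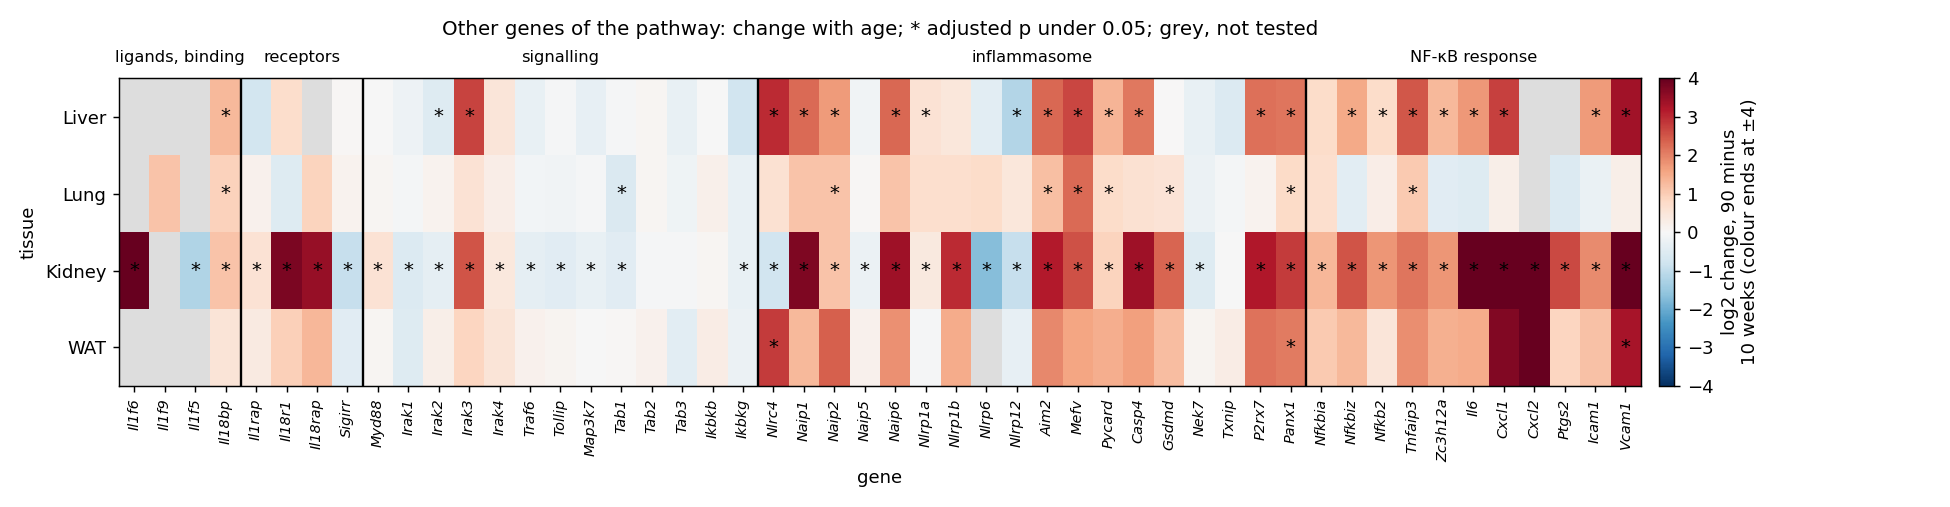
Change with age, as log2 level at 90 weeks minus 10 weeks, of the other genes of the pathway in each tissue, in 5 groups, with the colour scale ending at 4 units either way. Stars mark an adjusted p under 0.05 and grey cells were not tested. The kidney row has the most stars in every group, and its NF-κB response genes are all starred.

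The genes whose levels over the 24 arrays were most like those of a member were named as a description. For Casp1 these were Cd84, Lilrb4a and Btk, with Pearson r of 0.99, 0.98 and 0.98, all genes of leukocytes. Il1r2 was most like Slfn1, Clec4e and Treml2 (0.95, 0.95 and 0.94), and Il1b most like Ifitm1, Fpr2 and Trim30b (0.93, 0.91 and 0.90). Il33 was most like Gpsm1, Fmnl3 and the matrix gene Mgp (0.98, 0.98 and 0.96), Il1rl1 most like Srpx, Rbpj and Flnc (0.97, 0.97 and 0.97), and Il1rn most like Sdc3, Zc3hav1 and Hpse (0.95, 0.94 and 0.94). The arrays of a tissue share its slide and its cell makeup, so differences between tissues add to these correlations.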

How the data were processed

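RNA of 24 tissue samples was labelled with Cy3 and hybridized in 1 colour. The deposited intensity of each of 62976 spots is the processed signal of Feature Extraction 11.0.1.1, background-subtracted by the authors' scan software and not scaled between arrays. The array carries a mouse design. Probes were named through unversioned accessions and RefSeq genes of GRCm38.p6 (58.3% matched). The log2 of the deposited intensity was centred on each array's 75th percentile after 1841 spots flagged in all were left out. No spot was saturated. A probe had to stand well above background on 3 or more of 6 arrays, and the brightest probe stood for its gene. Aged and young mice were compared in R 4.3.3 by limma 3.58.1, adjusted by Benjamini-Hochberg over every gene of a tissue. The differences among tissues were tested in a fit of 24 arrays. p-values are two-sided and cover the spread between these mice. The number of arrays limits precision, and an exact permutation of 3 against 3 cannot go below 0.1. Fits were tested on simulated data. Changes of 1 log2 unit were recovered at 82% in the kidney, 43% in the lung, 16% in the liver and 0% in WAT. For changes of 2 units the shares were 96%, 89%, 83% and 42%, so counts of calls do not compare the tissues evenly.

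Alternatives were normexp (offset 50), quantile, median and spike-in scaling, no filter or a stricter one, the mean of a gene's probes, the replicate number as a block, 1 fit of all arrays, the methods' t-test and each mouse left out. Each other probe of a gene was added after the data were seen. The members and lists were chosen with earlier results of these data known. The genes named are the 10 members, up to 3 genes of a list and tissue with the largest change among those called, and for each member the 3 genes of highest correlation, of which those of 6 members are printed. The protein and tissue staining experiments of the study were not analysed here.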

Additional observations from a re-analysis of the deposited data

Results flagged for a closer look

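The change with age differed among the 4 tissues for 5 genes, by the F test over 24 arrays in limma. The adjusted p was 6.29e-05 for Il1rn, 0.000179 for Il33, 0.0267 for Il1r1, 0.00411 for Il1rl1 and 0.0110 for Casp1.

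The single contrasts that passed are given as differences between 2 log2 changes. For Il1rn the change in the liver minus that in the kidney was -5.12, liver minus WAT -2.88, lung minus kidney -6.21, lung minus WAT -3.97 and kidney minus WAT 2.24. Those with the kidney rest on a probe that no young kidney array measured well above background, so their sizes are not exact. For Il33 liver minus lung was 1.17, liver minus kidney -1.61, lung minus kidney -2.78 and kidney minus WAT 1.65. For Il1r1 lung minus kidney was -1.92 and kidney minus WAT 1.95. For Il1rl1 liver minus kidney was -2.69 and lung minus kidney -3.61. The first rests on liver arrays of which 1 of 6 was well above background, and Il1rl1 was not tested within the liver. For Casp1 lung minus kidney was -1.93. Each tissue lies on its own slide, with both ages on it.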

How the results depend on the processing

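In the kidney, 7 to 10 genes were called under the alternatives (9 as reported), 7 to 9 with a mouse left out. In the liver (3 as reported), 5 were called with all arrays in 1 fit, 1 by the methods' t-test, and 2 to 6 with a mouse left out, the 6 without aged mouse 4. In the lung (2 as reported), 1 was called with no filter on dim probes, 1 with the mean of a gene's probes, 0 with all arrays in 1 fit and 0 by the methods' t-test. Leaving out a mouse left 0 to 1 in the lung, 0 without each young mouse and 1 without each aged mouse. In WAT (1 as reported), 2 were called with normexp, 3 with all arrays in 1 fit and 0 by the methods' t-test. There, leaving out a mouse left 0 to 1, with 0 without young mouse 3, aged mouse 1 or aged mouse 3. The change differed among tissues for 4 to 7 genes, 4 to 6 with a mouse left out, and the level at 10 weeks for 9 to 10. That of Il1r1 missed the threshold without young kidneys 1 or 2 or aged kidneys 1 or 2.

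Arrays of the same replicate number were compared by their deviations from the group means. Young and aged arrays of 1 number in a tissue are different mice. Their deviations correlated at -0.17 to 0.18 over 11 pairs, 1 of them over 0.1. For arrays of 1 number and age in 2 tissues the range was -0.14 to 0.27 over 33 pairs, 4 of them over 0.1. These values do not tell whether 1 mouse gave several tissues. With the number as a block 9 genes were called in the kidney, 2 in the liver, 0 in the lung and 0 in WAT, and the counts of 5 and 10 for the differences among tissues were the same.

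The sign turned for changes that passed no test. With normexp Il1a was -0.17 in the liver and 0.088 in the lung, and Nlrp3 was 0.11 in the lung and 0.10 in WAT, where it was 0.046 with quantile scaling. The second Il33 probe gave 0.085 in the lung. Leaving out a mouse gave ranges of -0.30 to 0.083 for Nlrp3, -1.55 to 0.22 for Il1a and -0.48 to 0.024 for Il18 in the lung, and of -0.27 to 0.76 for Il18 and -0.23 to 0.12 for Nlrp3 in WAT. Some or all arrays were not well above background for Il1a outside the liver, Il1rl1 in the liver, Il1rn in the young kidney and Il1r2 in the young liver and young kidney. Nlrp3 was well above background on 2 of 3 aged lung arrays and on all arrays of the other groups. The cause of the sign changes was not tested.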
